A study of Mus musculus with 18 samples.

Results

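Myeloid progenitors were examined in the bone marrow (BM) of E18.5, P0 and adult mice. They were the cells that the deposited cell table gave a cluster code beginning with My, and that held at least 1000 unique molecular identifiers (UMIs, each 1 captured RNA molecule). This rule found 2073 cells of the 56201 deposited cells of the whole series. Of these, 486 came from E18.5 (261 MyP1 and 225 MyP2), 1003 from P0 (649 MyP2 and 354 MyP3) and 584 from adult BM (82 MyP4 and 502 MyP5). The E18.5, P0 and adult libraries held 2520, 5951 and 4968 cells above the same UMI minimum. Each stage was clustered by itself in the study, so a code shared by a pair of stages is a shared name and not a shared cluster. Of the cells of their library with 1000 UMIs or more, MyP1 made 10.4% (9.19 to 11.6), E18.5 MyP2 8.93% (7.84 to 10.1), P0 MyP2 10.9% (10.1 to 11.7), MyP3 5.95% (5.36 to 6.58), MyP4 1.65% (1.31 to 2.04) and MyP5 10.1% (9.28 to 11.0). Without barcodes found in another library, MyP1 made 8.79% and E18.5 MyP2 6.73%.

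The study followed blood formation in BM from before birth to adulthood by single-cell RNA sequencing with antibody tags (CITE-Seq). The cells used here were hematopoietic progenitors (HPs), sorted from BM as Lineage-negative and Kit-positive, and every group was labelled C57B6/J with no genetic or drug treatment. The 3 groups differed in stage, and each was 1 library made from a pool of mice that was not repeated. Differences between stages, pools and library preparations therefore cannot be told apart. No difference between stages was tested, and all intervals are 95% intervals of counting error alone.

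Myeloid progenitors give rise to granulocytes and monocytes. In the granulocyte branch, promyelocytes first fill primary (azurophilic) granules with myeloperoxidase and the serine proteases neutrophil elastase, proteinase 3 and cathepsin G. Later cells switch to the contents of secondary and tertiary granules, and the transcription factors C/EBPα, PU.1, GFI1 and C/EBPε are known for driving these steps.

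The promoters of 4 primary granule genes that define these cells are shown because the same 7 letters, AGGAAGT, stand within the 250 bases before the start of each. These letters match the core that PU.1 and other ETS factors are known to prefer. They are in capitals, the sequences are from RefSeq on build GRCm38.p6, and each is read 5′ to 3′ on the strand of its gene. The Mpo window is chr11:87793537-87793591 on the plus strand and its match begins 223 bases before the RefSeq start. The Elane window is chr10:79886204-79886258 on the plus strand, with the match 84 bases before the RefSeq start. The Prtn3 window is chr10:79879549-79879603 on the plus strand, with the match 94 bases before the RefSeq start, and the Ctsg window is chr14:56102750-56102804 on the minus strand, with the match 206 bases before the RefSeq start.
Mpo: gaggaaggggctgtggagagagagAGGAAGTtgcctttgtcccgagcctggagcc
Elane: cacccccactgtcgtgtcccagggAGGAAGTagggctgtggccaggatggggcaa
Prtn3: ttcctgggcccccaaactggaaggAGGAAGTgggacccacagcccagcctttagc
Ctsg: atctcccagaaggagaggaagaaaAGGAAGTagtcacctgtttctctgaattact
On either strand (AGGAAGT or ACTTCCT), the letters were present in 6 of the 12 primary granule genes examined here (Cst7, Ctsg, Elane, Lyz2, Mpo and Prtn3) and in 2525 of 32851 promoters (7.69%). The letters CAACGG, the core known for MYB, or their reverse CCGTTG were present in 2 of the 12 (Elane and Prtn3) and in 1330 of all promoters (4.05%). A match is a description of the letters and shows no binding. By the GENCODE starts, which differ from those of RefSeq, the Prtn3 window lies inside the gene and the Mpo and Elane windows run past the start into the gene. Prtn3 and Elane lie next to each other on chromosome 10 (starts at 79874476 and 79886247, mm10, GENCODE), and Prss57, another primary granule protease gene, lies on the same chromosome at 79781474 to 79790961.

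Depth and shared cell barcodes differed between the codes. The median UMI count per cell was 41684 in E18.5 MyP1, 46033 in E18.5 MyP2, 25061 in P0 MyP2, 22736.5 in P0 MyP3 and 16646.5 in adult MyP5, against 1586 in adult MyP4. Of the 701 deposited MyP4 cells, 619 were below 1000 UMIs and were left out. The E18.5 and adult libraries shared 375 barcodes, P0 and adult shared 225, and E18.5 and P0 shared 83. Among E18.5 cells, 69 of 261 MyP1 and 78 of 225 MyP2 cells had a barcode found in another library, mostly with an adult MyP4 cell of far fewer UMIs (for MyP2, a median of 481 against 55775). In P0 this held for 9 MyP2 and 12 MyP3 cells, and in the adult for 15 MyP4 and 7 MyP5 cells. Without such barcodes the late granule levels of E18.5 MyP2 were higher: Camp stood at 988 CPM in place of 574, Ngp at 248 in place of 142, S100a9 at 4351 in place of 2827 and S100a8 at 7114 in place of 5265, while Elane stood at 3689 in place of 3654. In E18.5 MyP1 without them, Elane stood at 22.2 CPM in place of 67.0. The adult library also held more of the 4 transcripts Gm42418, AY036118, Gm26917 and Lars2, which together made 3.79% of UMIs in MyP5 and 12.8% in MyP4, but between 0.165% and 0.315% in the E18.5 and P0 codes.

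The leading genes matched the label in part. The study named its clusters by marker genes in these same cells, so a match describes the label and gives it no separate support. Among the 10 genes with the largest ratio to the other cells of the library, 7 myeloid progenitor markers were found for E18.5 MyP2, and 5 each for P0 MyP2 and adult MyP5. Elane led E18.5 MyP2, at 112 times the level of the other E18.5 cells. P0 MyP3 had 5 neutrophil markers among its 10 (Camp, Fcnb, S100a8, S100a9 and Ngp) against 1 myeloid progenitor marker, Elane. E18.5 MyP1 had none of the myeloid progenitor markers and 2 markers of hematopoietic stem and progenitor cells (HSPCs), Adgrl4 and Cd34, beside histone genes and Hmga2. Adult MyP4 had 5 erythroid genes, led by Hba-a2 at 17.7 times the rest of the library. After thinning to 1000 UMIs, Hbb-bs was found in 12 of 82 cells (14.6%, 7.80 to 24.2), with up to 134 UMIs in 1 cell. F13a1, a monocyte marker, led P0 MyP2. MyP1, MyP3 and MyP4 were not led by myeloid progenitor markers, and these are called by their code. The other cells of a library included its other My code, so this ratio alone does not settle the name. MyP3 held Mpo, Elane and Prtn3 at 2.58% of UMIs, above E18.5 MyP2 at 1.35%. After thinning, 59.4% of MyP1 cells held any of these 3 genes, against 28.1% of E18.5 HSPCs.

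Mpo, Elane and Prtn3 together separated the codes. They made 0.196% of all UMIs in E18.5 MyP1 (0.194 to 0.199), 1.35% in E18.5 MyP2, 1.05% in P0 MyP2, 2.58% in P0 MyP3, 0.302% in adult MyP4 and 2.91% in adult MyP5 (2.90 to 2.92). After every cell was thinned to 1000 UMIs, the median cell held 1 UMI of these 3 genes in MyP1, 12 in E18.5 MyP2, 9 in P0 MyP2, 27 in P0 MyP3, 1 in MyP4 and 29 in MyP5. MyP3 and MyP5 were thus the highest, and MyP1 and MyP4 the lowest. The B cell codes were taken as a background for the share of cells with any of the 3 genes. The source of this RNA in B cells, such as free RNA in the droplets, was not tested. After thinning, the share in B cell codes was 5.92% for E18.5, 14.5% for P0 and 51.9% for the adult library. Their median depths before thinning were 22806, 13862 and 2229.5 UMIs, so the adult background was far shallower than MyP5 (16646.5). In the member codes the shares were 59.4% in MyP1, 97.8% in E18.5 MyP2, 98.9% in P0 MyP2, 99.4% in MyP3, 62.2% in MyP4 (50.8 to 72.7) and 100% in MyP5. The adult B cell interval of 47.0 to 56.8 overlapped that of MyP4, so the share for the 3 genes together could not be told from background. Of the single genes after thinning, Mpo was found in 42.7% of MyP4 cells (31.8 to 54.1) and 17.4% of adult B cells (13.9 to 21.4), intervals that do not overlap. Those of Elane and Prtn3 did overlap, with Elane in 31.7% of MyP4 cells (21.9 to 42.9) and 18.6% of B cells (15.0 to 22.7). Prtn3 was found in 45.1% (34.1 to 56.5) and 36.2% (31.6 to 41.1). An overlap of intervals does not show that the shares are equal, and the difference was not tested.

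Levels of single genes are given as counts per 1000000 UMIs (CPM) of the summed cells of a code. Mpo, the enzyme that makes hypochlorous acid in the primary granule, stood at 1071 CPM in E18.5 MyP1, 4379 in E18.5 MyP2, 4122 in P0 MyP2, 6591 in P0 MyP3, 1173 in adult MyP4 and 8426 in adult MyP5. Elane, neutrophil elastase, stood in the same order at 67.0, 3654, 1989, 9184, 816 and 8618 CPM. Elane covered a wider range than Mpo, and MyP1 held Mpo and Prtn3 (824 CPM) with little Elane. Ctsg, cathepsin G, stood at 367 CPM in MyP1, 3163 in E18.5 MyP2, 3002 in P0 MyP2, 5164 in MyP3, 833 in MyP4 and 5300 in MyP5. Ms4a3, a membrane gene known as a mark of granulocyte and monocyte progenitors, stood at 37.1, 1013, 586, 1691, 130 and 1339 CPM in the same order. In the B cell codes Elane stood at 5.93, 25.5 and 163 CPM for E18.5, P0 and the adult.

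**Figure D1:**
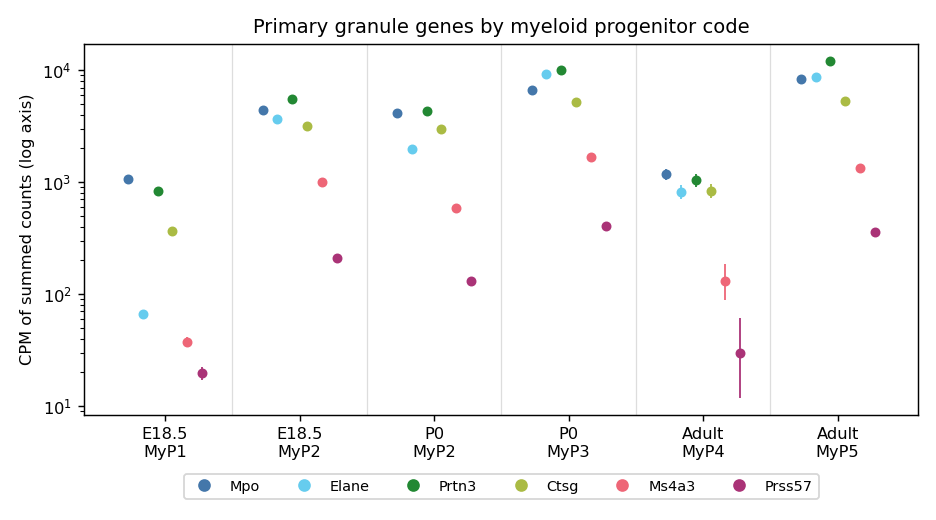
CPM of summed counts (log axis) of 6 primary granule genes in each code, with exact Poisson 95% intervals of counting error where these are wider than the point. All 6 genes are lowest in E18.5 MyP1 or adult MyP4, and Prtn3 reaches 12047 CPM in adult MyP5.

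Late granule genes split the codes further. The list of 20 secondary and tertiary granule genes made 0.0108% of UMIs in MyP1, 1.32% in E18.5 MyP2, 0.127% in P0 MyP2, 3.87% in P0 MyP3, 0.421% in MyP4 and 1.49% in MyP5. S100a8, a subunit of the antimicrobial protein calprotectin, stood at 6.30, 5265, 321, 15166, 1817 and 7294 CPM in the same order. Camp, the cathelicidin antimicrobial peptide, stood at 0.730 CPM in MyP1, 574 in E18.5 MyP2, 2.09 in P0 MyP2, 2258 in MyP3, 484 in MyP4 and 833 in MyP5. Ltf, lactoferrin, reached at most 35.4 CPM, in MyP3. The list was thus highest in MyP3 and lowest in MyP1. In MyP3, S100a8, S100a9 and Stfa1 stood at 15166, 10002 and 7281 CPM of the 38718 CPM of the list. In MyP5, S100a8 and S100a9 stood at 7294 and 4506 of 14870 CPM. The late granule share of these codes is therefore in large part S100a8 and S100a9 RNA. The list also holds Cebpe, a transcription factor gene, so its sum is not a measure of granule contents alone. In the adult B cell codes S100a8 stood at 2137 CPM, above the level in MyP4. After thinning to 1000 UMIs, Camp was found in 24.5% of MyP5 cells (20.8 to 28.5). It was found in 22.9% of adult HSPCs (19.6 to 26.4) and 51.2% of adult B cells, but in at most 0.258% of E18.5 and P0 HSPCs and B cells. The share of MyP5 cells with Camp could therefore not be told from that of adult HSPCs.

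Cells were then placed by the percent of their UMIs from the late granule list without Stfa1, a gene nearly absent from the adult library. All 261 MyP1 cells were under 0.1%. E18.5 MyP2 had 105 cells under 0.1%, 67 between 0.1 and 1%, and 53 at 1% or more. P0 MyP2 had 454, 193 and 2 such cells, P0 MyP3 had 0, 122 and 232, and adult MyP5 had 15, 323 and 164. The median cell stood at 0.129% in E18.5 MyP2, 0.0661% in P0 MyP2, 1.60% in MyP3 and 0.444% in MyP5. Within 1.1-fold of the lower edge lay 8 E18.5 MyP2, 57 P0 MyP2 and 17 MyP5 cells, and within 1.1-fold of the upper edge 6 E18.5 MyP2, 17 MyP3 and 15 MyP5 cells. E18.5 MyP2 therefore spanned the range that P0 MyP2 and MyP3 divided between them. The same share in other cells differed between libraries. Of E18.5 HSPCs 387 of 388 and of P0 HSPCs 1390 of 1393 were under 0.1%, with B cells alike at 151 of 152 and 385 of 387. Of adult HSPCs, 154 of 625 were under 0.1%, 464 between 0.1 and 1% and 7 at 1% or more, and of adult B cells 21, 335 and 58 of 414. The adult medians were 0.161% in HSPCs and 0.429% in B cells. For adult MyP5, the share between 0.1 and 1% could therefore not be told from background. In the paragraphs below, gene levels by late granule share are compared with other stages only for adult cells at 1% or more. That range is not free of background either, as 58 of 414 adult B cells lay in it. The plot of Igf2bp3, Hmga2 and Ly6c2 and the processing alternatives also include adult cells between 0.1 and 1%, under the limit given for that range.

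**Figure D2:**
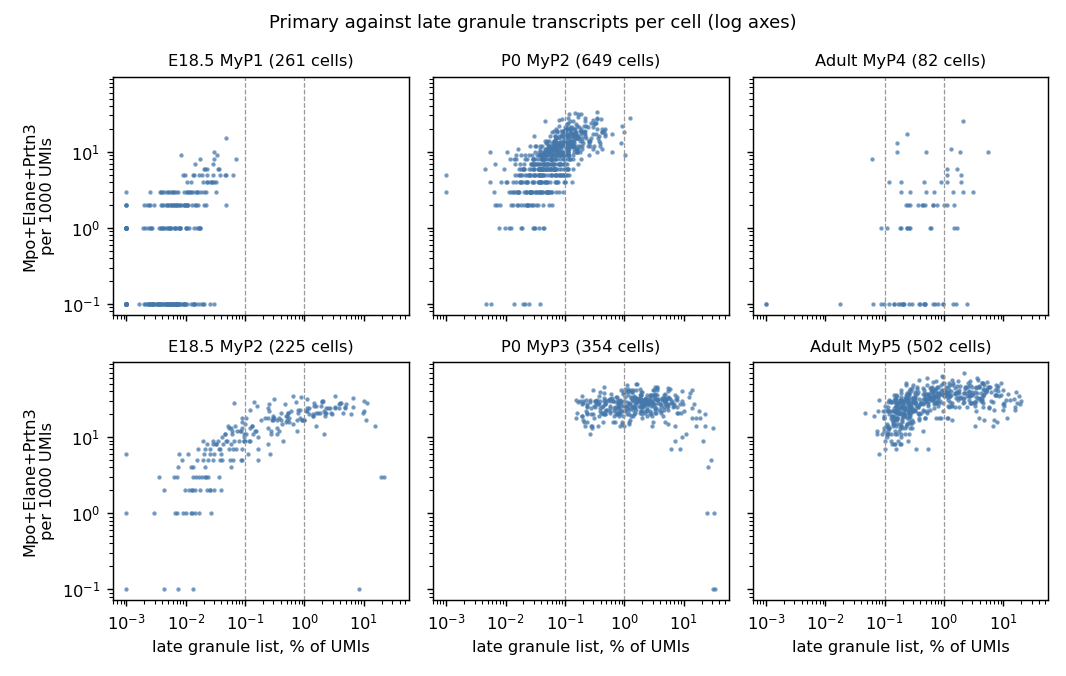
Each point is 1 cell: UMIs of Mpo, Elane and Prtn3 per 1000 thinned UMIs (values of 0 drawn at 0.1) against the percent of UMIs from the late granule list without Stfa1 (values under 0.001 drawn at 0.001), both on log axes, with dashed lines at 0.1% and 1%. P0 MyP2 lies almost wholly left of the 1% line (2 of 649 cells at or above it), and P0 MyP3 lies wholly right of the 0.1% line.

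The regulators of these steps had lower levels. Cebpe, which late granule genes depend on, stood at 5.38 CPM in MyP1, 207 in E18.5 MyP2, 118 in P0 MyP2, 299 in MyP3, 16.8 in MyP4 and 172 in MyP5. Gfi1, a repressor needed for the granulocyte branch, stood at 14.7, 70.7, 49.0, 107, 16.8 and 76.8 CPM in the same order. Irf8, which favours the monocyte branch, ran the other way, at 77.9 CPM in MyP1, 46.3 in E18.5 MyP2, 75.7 in P0 MyP2, 3.49 in MyP3, 84.1 in MyP4 and 26.5 in MyP5. By late granule share, Irf8 stood at 91.5 CPM in E18.5 MyP2 cells under 0.1% and 3.13 in those at 1% or more, and at 101 and 26.2 CPM in P0 MyP2 cells under 0.1% and between 0.1 and 1%. Spi1, which encodes PU.1, varied less, from 50.5 CPM in MyP4 to 306 in MyP3, and Myb stood between 273 and 475 CPM in all 6 codes. Among the receptors, Ifngr1 for interferon gamma stood at 60.2 CPM in MyP1, 186 in E18.5 MyP2, 273 in P0 MyP2, 452 in MyP3, 84.1 in MyP4 and 423 in MyP5. Kit, the receptor used in the sort, stayed between 79.9 and 124 CPM, and Csf3r, the receptor for granulocyte colony-stimulating factor, between 16.8 and 65.1 CPM.

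Stem cell genes were highest in MyP1 and lowest in MyP3. As a list, fetal program genes made 0.0582% of UMIs in MyP1, 0.0371% in E18.5 MyP2, 0.0362% in P0 MyP2, 0.0245% in MyP3, 0.00967% in MyP4 and 0.00704% in MyP5. The stem and multipotent progenitor list made 0.201% of UMIs in MyP1, 0.0535% in E18.5 MyP2, 0.0846% in P0 MyP2, 0.0174% in MyP3, 0.0492% in MyP4 and 0.0281% in MyP5. Cd34, a surface protein of early progenitors, stood at 288, 123, 178, 14.2, 101 and 46.4 CPM in the same order. Hmga2, a chromatin protein of fetal stem cells, stood at 285 CPM in MyP1, 111 in E18.5 MyP2, 115 in P0 MyP2, 12.4 in MyP3, 21.0 in MyP4 and 1.34 in MyP5. Igf2bp3, an RNA-binding protein of the fetal program, instead differed by stage: it stood at 86.8, 92.3, 98.8 and 95.2 CPM in the 4 E18.5 and P0 codes, and at 8.41 in MyP4 and 10.6 in MyP5. Lin28b, which blocks let-7 processing and sustains the fetal program, stood at 20.3, 17.2, 18.4 and 9.75 CPM in the E18.5 and P0 codes and at 0 counts in both adult codes, which allows up to 12.6 CPM in MyP4 and 0.366 CPM in MyP5 (3 counts of the summed UMIs).

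**Figure D3:**
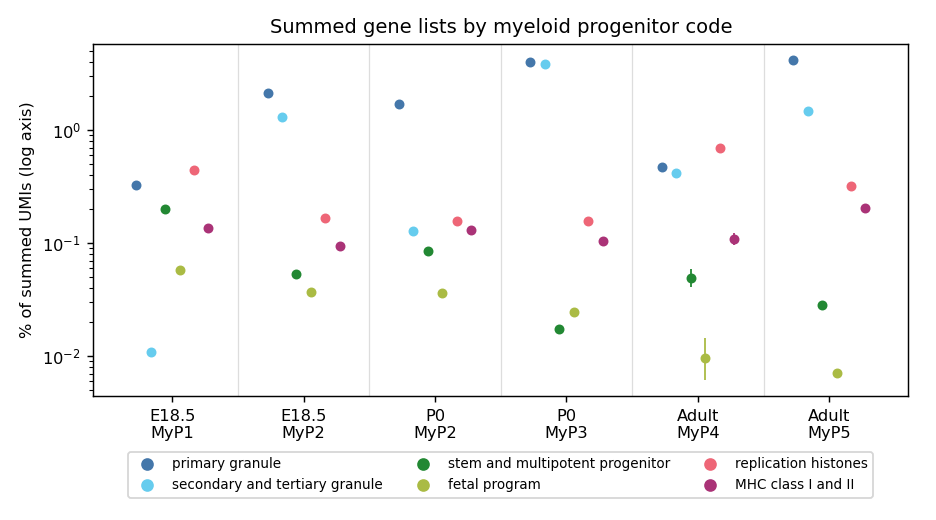
Percent of the summed UMIs (log axis) from 6 gene lists in each code, with exact Poisson 95% intervals of counting error where these are wider than the point. The secondary and tertiary granule list spans from 0.0108% in E18.5 MyP1 to 3.87% in P0 MyP3, and the fetal program list falls to 0.00704% in adult MyP5.

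Within E18.5, MyP2 set against MyP1 showed the granule program on one side and the stem and histone genes on the other. A gene was counted when its CPM was at least 2-fold higher in a code with 100 CPM and 50 counts or more; of 1595 genes examined, 82 (5.14%) were higher in MyP2 and 44 (2.76%) in MyP1. A gene that met this minimum in only the higher code had to differ, so the list counts are descriptions. Of the 12 primary granule genes, 11 were higher in MyP2, and 7 of the 12 met the minimum only there. Of the 20 late granule genes, 18 had the higher CPM in MyP2, and the 10 that were examined met the minimum only there. Of the secretory pathway and endoplasmic reticulum (ER) list, which folds and exports granule proteins, 11 of 22 were higher in MyP2, 7 of which met the minimum in both codes. Among the 11 was Calr, calreticulin, at 1036 CPM in MyP1 and 2380 in MyP2. The 18 stem genes each had the higher CPM in MyP1, and of the 7 examined 5 met the minimum only there. The 12 replication histone genes also each had the higher CPM in MyP1, and the 6 that met the minimum in both codes were at least 2-fold higher. Without barcodes found in another library, 90 and 50 of 1616 genes passed. Elane was 54.5-fold higher in MyP2 (50.7 to 58.8) with every cell and 166-fold higher (142 to 196) without such barcodes. Ctla2a, a protease inhibitor gene, was 8.75-fold higher in MyP1 (7.77 to 9.87). The largest ratio in that direction was that of Hbb-bt, a beta globin gene, at 148 CPM in MyP1 and 3.66 in MyP2. The 10 erythroid markers together made 0.0230% of UMIs in MyP1, with 2 of them at 0 counts, and 0.00189% in MyP2, with 3 at 0, and their part in these differences was not tested.

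Within P0, MyP3 set against MyP2 differed at 73 genes (4.73%) that were higher in MyP3 and 25 (1.62%) in MyP2, of 1543 examined. Each of the 12 primary granule genes met the minimum in both codes, and 10 were higher in MyP3. Of the 20 late granule genes, 19 had the higher CPM in MyP3, 7 were not examined and 8 met the minimum only in MyP3. Of the 5 that met it in both codes, 4 were higher in MyP3. The ER list gave 1 of 22, Tmed3. The median log2 ratio over all examined genes was -0.17, and that of the 11 examined ribosome biogenesis genes was -0.67, with none past 2-fold. Cd34 was 12.5-fold higher in MyP2 (10.4 to 15.2). Ms4a6c, a monocyte gene, stood at 124 CPM in P0 MyP2 and 14.2 in MyP3, and Ccl9, a chemokine gene, at 149 and 52.8 CPM. Both met the minimum only in MyP2. Of the 16 monocyte and macrophage progenitor genes, 12 had the higher CPM in MyP2 and 4 in MyP3, and 11 were not examined. Ly6c2 of the same list was higher in MyP3, with a log2 ratio of 1.94.

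Between the codes named MyP2 in the E18.5 and P0 libraries, of 1536 genes examined, 8 (0.521%) were at least 2-fold higher at P0 and 12 (0.781%) at E18.5. Of those 12, 7 were late granule genes (Camp, Ngp, Fcnb, S100a8, S100a9, Pglyrp1 and Stfa1), of which 5 met the minimum only at E18.5, and none of the 12 primary granule genes passed in either direction. Without barcodes found in another library the counts were 6 and 15 of 1535. Ifitm3, an interferon-induced membrane gene, stood at 94.4 CPM at E18.5 and 299 at P0. Ms4a6c stood at 38.9 and 124 CPM for the same stages, and Ifi27, another interferon-induced gene, was 4.07-fold higher at P0. The monocyte genes Ms4a6c and Ccl9 and the stem list genes Sox4 and Ifitm1 were higher at P0 but met the minimum only there. Of the lists they belong to, 11 of 16 and 14 of 18 genes were not examined. Among cells under 0.1% late granule UMIs (105 and 454 cells), 10 genes (0.638%) were higher at P0 and 4 (0.255%) at E18.5 of 1567 examined. Between 0.1 and 1% (67 and 193 cells) these were 5 (0.328%) and 4 (0.262%) of 1525.

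For the stages, the code with the highest sum of Mpo, Elane and Prtn3 was compared: E18.5 MyP2, P0 MyP3 and adult MyP5. These 3 genes are among the 12 primary granule genes, so the counts of that list between stages are descriptions. Between E18.5 and P0, 47 of 1559 genes (3.01%) were at least 2-fold higher at P0 and 24 (1.54%) at E18.5, and the median log2 ratio was -0.17. With median-of-ratios scaling, which sets that median near 0, the counts were 71 and 13. Of the 20 late granule genes, 17 had the higher CPM in P0 MyP3, 10 met the minimum in both codes and 8 of these were at least 2-fold higher there. The 12 primary granule genes each had the higher CPM in P0 MyP3, and Elane, Lyz2 and Gstm1 were at least 2-fold higher. The sign depended on the P0 code taken: with MyP2 in place of MyP3 the log2 ratio was -0.88 for Elane, -4.04 for S100a8, -8.10 for Camp, -8.05 for Ngp and -4.86 for Fcnb. Ngp, neutrophilic granule protein, stood at 142 CPM at E18.5 and 602 at P0, 4.23-fold higher (3.99 to 4.49), and Camp was 3.94-fold higher (3.82 to 4.05). Without barcodes found in another library these folds were smaller, with a log2 ratio of 1.32 for Ngp and 1.22 for Camp, and 38 and 16 genes passed. Hmga2 was 8.94-fold lower at P0 and Cd34 8.63-fold lower, but with P0 MyP2 in place of MyP3 their log2 ratios were 0.053 and 0.54, and in cells at 1% or more late granule UMIs that of Cd34 was 0.31. Between MyP2 and MyP3, none of the 22 ER genes, 6 replication histone genes or 4 major histocompatibility complex (MHC) genes examined passed in either direction.

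The E18.5 to P0 counts were small among cells of like late granule share, a split made after the values were seen. Among cells at 1% or more (53 MyP2 and 232 MyP3 cells), with the genes that set the split left out, 5 of 1404 genes (0.356%) were higher at P0 and 2 (0.142%) at E18.5. Those higher at P0 included Apoe, Cirbp, Nfkbia and Ifi27, and the 2 higher at E18.5 were Hist2h2ac and Lars2, all named after their values were seen. Apoe, apolipoprotein E, stood at 68.8 CPM at E18.5 and 157 at P0. In these cells Elane stood at 7310 and 9711 CPM, and Hmga2 at 15.2 and 11.8. Between 0.1 and 1% (67 and 122 cells), 9 of 1532 genes (0.587%) were higher at P0 and 11 (0.718%) at E18.5.

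Between P0 MyP3 and adult MyP5, 28 of 1441 genes (1.94%) were at least 2-fold higher in the adult and 30 (2.08%) at P0, with a median log2 ratio of -0.08. Primary granule genes were close: 1 of 12, Lyz2 for lysozyme, passed, at 251 CPM in P0 MyP3 and 96.9 in adult MyP5. Mpo was 1.28-fold higher in the adult (1.26 to 1.29) and Elane 1.07-fold lower. Of the 20 late granule genes, 16 had the higher CPM at P0, 11 met the minimum in both codes and 6 of these were at least 2-fold higher at P0. Among the genes higher at P0 were Lcn2, lipocalin 2, at 238 and 46.0 CPM, and Fcnb, ficolin B, at 576 and 200 CPM. Lcn2 met the minimum only at P0. The sign depended on the cells taken: against P0 MyP2, 67 of 1558 genes (4.3%) were higher in the adult and 90 (5.78%) at P0, and Camp and S100a8 were among the first. With all member codes of each stage, S100a8 had a log2 ratio of 0.44 and Camp of 0.13.

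Genes higher in adult MyP5 than in both earlier codes included MHC class I genes, replication histone genes, Ly6c2 and Hk3. H2-K1, an MHC class I heavy chain, stood at 120 CPM in E18.5 MyP2, 134 in P0 MyP3 and 441 in adult MyP5, and H2-D1 at 123, 186 and 428 CPM. Of the 13 MHC genes, 9 had the higher CPM in adult MyP5 and 4 in E18.5 MyP2. Against P0 MyP2, 11 had the higher CPM in the adult and 2 at P0. The 13 genes each had the higher CPM in adult MyP5 than in P0 MyP3, but only 5 were examined. Of the 4 that met the minimum in both codes, H2-K1 and H2-D1 were at least 2-fold higher, and Psmb9, an immunoproteasome subunit, met it only in the adult, against 1.94% of all genes examined. Against E18.5 MyP2, 5 of the 13 were examined. Of the 4 that met the minimum in both codes, H2-K1 and H2-D1 were at least 2-fold higher in the adult, and Psmb9 again met it only there. Of all genes examined in that pair, 2.85% were higher in the adult. Ly6c2, a surface protein of monocytes and neutrophils, stood at 166, 597 and 1224 CPM, so that the adult level was 7.37-fold that of E18.5 (6.99 to 7.76). Hk3, a hexokinase of granulocytes, stood at 21.4, 32.9 and 155 CPM. The authors' counting could split reads of H2-K1 and H2-D1, of Ly6c2 and its neighbour Ly6c1, and of the histone genes between like copies. In HSPC codes (at P0 HSPC2 and HSPC3, without HSPC4, which held Elane at 1696 CPM), H2-K1 stood at 192, 246 and 535 CPM for E18.5, P0 and the adult.

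Of the 12 replication histone genes, 11 had the higher CPM in adult MyP5 than in P0 MyP3. Of the 9 examined, 4 met the minimum only in the adult, and 3 of the 5 that met it in both codes were at least 2-fold higher there, against 1.94% of all genes examined. Hist1h4h stood at 55.6 CPM in E18.5 MyP2, 31.7 in P0 MyP3 and 298 in adult MyP5, 9.42-fold higher than at P0 (8.29 to 10.7). In adult MyP4 it reached 484 CPM, and in the HSPC codes 29.7, 44.3 and 192 CPM at the 3 stages. Mki67, a marker of cycling cells, stood at 176, 160 and 208 CPM, and none of the 6 examined G2 and M phase genes passed 2-fold between P0 and the adult. Most of these histone transcripts lack a poly(A) tail, and the 4 transcripts raised in the adult library moved with them, Lars2 at 46.6 CPM in P0 MyP3 and 3090 in MyP5. Their part in the histone levels was not tested.

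Against E18.5 MyP2, adult MyP5 had 44 of 1546 genes (2.85%) at least 2-fold higher and 55 (3.56%) lower, with a median log2 ratio of -0.25, and 82 and 24 with median-of-ratios scaling. Of the 12 primary granule genes, 11 had the higher CPM in the adult, and Elane, Prtn3 and Nkg7, a granule membrane gene, were at least 2-fold higher. Elane and Prtn3 were among the genes used to choose the codes. Nkg7 stood at 376 CPM at E18.5, 691 in P0 MyP3 and 1109 in MyP5. Of 11 ribosome biogenesis genes, 4 were lower in the adult (Npm1, Ncl, Nop56 and Eif5a; median log2 -0.82). Npm1, nucleophosmin, stood at 4157 CPM in E18.5 MyP2, 2272 in P0 MyP3 and 1696 in MyP5. Calr, at 1149 CPM in MyP5, was the only 1 of 22 ER genes past 2-fold. With median-of-ratios scaling 6 of the 10 list genes higher at E18.5 remained, with log2 ratios of -1.04 for Npm1 and -1.07 for Ncl, while Calr, at -0.80, no longer passed. Hmga2 was 82.6-fold lower in the adult (46.0 to 166, from 11 counts). In cells at 1% or more late granule UMIs, Hmga2 stood at 15.2 CPM in E18.5 MyP2 (10.5 to 21.2) and at 3 counts in MyP5 (1.21 CPM, 0.250 to 3.55).

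The adult was also compared among cells at 1% or more late granule UMIs, a range that also held 58 of 414 adult B cells. In these cells 40 of 1426 genes (2.81%) were higher in the adult than at P0 and 32 (2.24%) lower, and against E18.5 these were 28 (1.94%) and 35 (2.43%) of 1443. In these cells Prtn3 stood at 9480, 10431 and 15792 CPM for E18.5, P0 and the adult. Ly6c2 stood at 393, 634 and 1665 CPM, and H2-K1 at 106, 132 and 353. Igf2bp3 stood at 102, 91.8 and 7.28 CPM, so the adult level was 12.6-fold lower than at P0 (7.89 to 21.4). In HSPC codes, Igf2bp3 stood at 94.7, 86.2 and 20.4 CPM at the 3 stages.

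**Figure D4:**
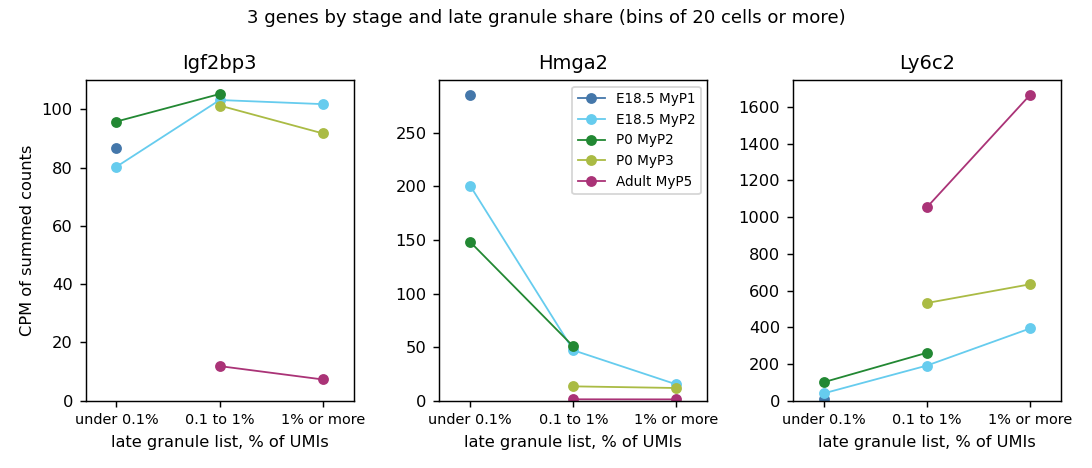
CPM of summed counts (linear axes) of Igf2bp3, Hmga2 and Ly6c2 by code, in cells grouped by the percent of UMIs from the late granule list without Stfa1; groups under 20 cells and adult MyP4 are not drawn. Adult cells between 0.1 and 1% could not be told from background by this share, and 58 of 414 adult B cells also lay at 1% or more. In cells at 1% or more, Igf2bp3 is lower in adult MyP5 than in E18.5 MyP2 and P0 MyP3. Hmga2 is lower in cells with more late granule RNA at E18.5 and P0, and Ly6c2 reaches 1665 CPM in adult cells at 1% or more.

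Between the adult and the earlier granule codes, the largest ratios belonged to the stefin A genes, small inhibitors of cysteine proteases that are abundant in mouse neutrophils. The 8 genes Stfa2l1, Gm5483, Gm5416, Stfa1, BC117090, BC100530, Stfa2 and Stfa3 span chr16:36156811-36455392 (mm10, GENCODE). Those beyond Stfa1 and the genes among the 10 largest ratios were added after their values were seen. Summed, they stood at 12.8 CPM in E18.5 MyP1 (10.7 to 15.1), 5028 in E18.5 MyP2 (4985 to 5072), 219 in P0 MyP2 (212 to 226) and 12872 in P0 MyP3 (12795 to 12949). They gave 2 counts in adult MyP4 (8.41 CPM, 1.02 to 30.4) and 2 counts among the 8193602 UMIs of adult MyP5 (0.244 CPM, 0.0296 to 0.882). The adult intervals lay below that of E18.5 MyP2 by more than 100 times.

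Stfa1 alone stood at 7.30 CPM in MyP1, 2960 in E18.5 MyP2, 183 in P0 MyP2, 7281 in MyP3 and at 1 count (0.122 CPM) in MyP5. Gm5483 stood at 365 CPM in E18.5 MyP2 and 1106 in P0 MyP3 and had 0 counts in MyP5, at least 3020-fold lower than at P0 against a floor of 3 counts in MyP5, with an exact lower limit of 2456-fold. The 8 genes are near copies of each other, so how their reads were split is uncertain, and the sum is the firmer value. S100a8 in the same MyP5 cells stood at 7294 CPM. After thinning, 46.2% of E18.5 MyP2 cells and 81.6% of P0 MyP3 cells held a stefin A UMI (74.2% and 97.2% before thinning), against 0 of 502 MyP5 cells, which allows up to 0.732%. Before thinning, 2 MyP5 cells (0.398%, 0.0483 to 1.43) held one. The thinned share was 1.15% in MyP1, 9.86% in P0 MyP2 and 2.44% in MyP4.

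The difference reached beyond these codes. In the neutrophil codes (Neu2, Neu2 and Neu3) of the E18.5, P0 and adult libraries the summed level was 156920, 136507 and 78.5 CPM. Over whole libraries, stefin A counts per 100 S100a8 counts were 118, 86.3 and 0.0724 for E18.5, P0 and the adult. In the adult library, the 523 deposited cells whose barcode also occurred at E18.5 or P0 stood at 337 CPM and the other 5462 cells at 7.63 CPM. The strain label was the same for the 3 libraries, but whether their pools of mice had the same genotype at these genes was not tested. Among E18.5 and P0 cells of 1% or more late granule UMIs, Stfa1 stood at 11016 and 10680 CPM.

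**Figure D5:**
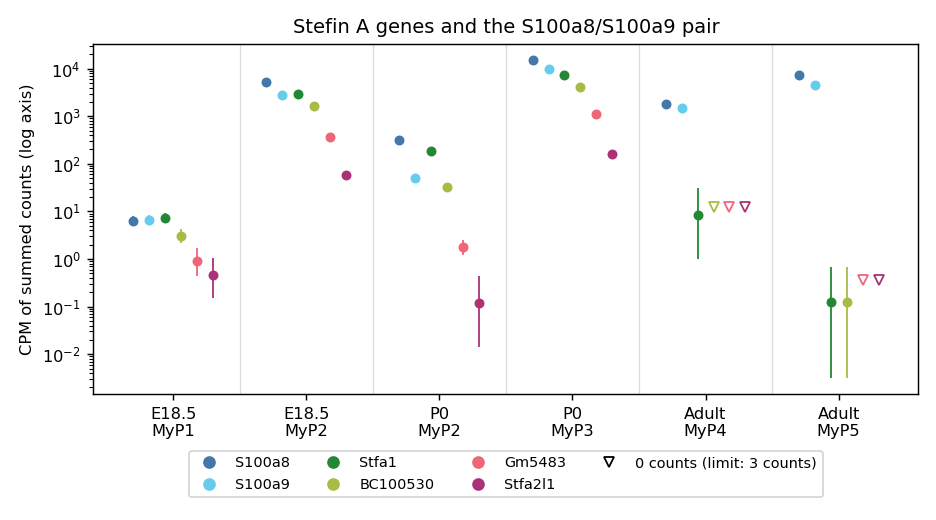
CPM of summed counts (log axis) of S100a8, S100a9 and 4 stefin A genes in each code, with exact Poisson 95% intervals; open triangles mark genes with 0 counts, drawn at the limit of 3 counts. S100a8 stands at 7294 CPM in adult MyP5, where Stfa1 and BC100530 have 1 count each and Gm5483 and Stfa2l1 have 0.

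The antibody tags gave a surface readout that did not enter the choice of members. Values are centered log-ratios (CLR) of the tag counts across a library, and cells above 1 were called positive. CD48 was positive in 88.1% of MyP1 cells (83.6 to 91.8), 65.8% of E18.5 MyP2, 18.8% of P0 MyP2, 1.98% of MyP3, 7.32% of MyP4 and 33.1% of MyP5. In HSPC codes CD48 was positive in 80.7%, 49.0% and 54.2% at the 3 stages. The raw CD48 tag counts were closer between stages, with medians of 227, 108, 101, 57, 17.5 and 102 in the same order of codes, and the CLR shares moved with the level and with the cells used for scaling. Scaled across cells of 1000 UMIs or more, CD48 was positive in 16.0% of E18.5 MyP2, 1.69% of MyP3 and 18.3% of MyP5 cells, which turned the order of E18.5 MyP2 and MyP5. Sca-1, a stem cell antigen, was positive in 31.8% of MyP1 cells (26.2 to 37.8), against 2.67% of E18.5 MyP2, 1.85% of P0 MyP2, 1.13% of MyP3, 13.4% of MyP4 and 9.56% of MyP5. In HSPC codes it was positive in 60.1%, 51.6% and 62.4%. The raw Sca-1 tag counts had medians of 4, 2, 2, 2, 1 and 1 in the same order of codes. The larger adult shares than in E18.5 MyP2 were not seen in these medians, which do not show the upper tail that the shares count. The deposited hscScore, a score of likeness to hematopoietic stem cells, had a median of -0.00500 in MyP1, -0.00494 in E18.5 MyP2, 0.00140 in P0 MyP2, 0.00578 in MyP3, 0.0915 in MyP4 and 0.0118 in MyP5. Median depth in the same order was 41684, 46033, 25061, 22736.5, 1586 and 16646.5 UMIs. Apart from the E18.5 pair, codes of lower depth had the higher score. The part of depth was not tested, so the score is not read as an order of the codes. MyP1 had the largest Sca-1 share of the 6 codes and a smaller share than the HSPC codes of its own library.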

How the data were processed

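The authors deposited raw UMI counts per gene and cell (20275 genes), raw antibody tag counts, and a cell table with library, cluster code, UMI and gene counts, the mitochondrial share as a fraction and an hscScore, a score per HP cell. By their methods and processing notes, reads were counted with Cell Ranger 3.1.0 on mm10, and cells with very high UMIs were removed (R 4.0, Seurat 3.1.5). No doublet caller was run here. Counts of cells with 1000 UMIs or more were summed per code and scaled to CPM (Python 3.11.15, scipy 1.17.1). Intervals are exact at 95%: Poisson for sums, Clopper-Pearson for shares, conditional binomial for ratios. With 1 library per stage there is no test. The members, codes and 17 gene lists (with 14 marker lists) were chosen with earlier results of these data known. Named genes are list members, the 10 largest ratios each way per pair of codes (minimum 100 CPM and 50 counts, without mitochondrial, Rpl, Rps, Gm42418, Xist, Tsix and Y-linked genes) and the 10 leading genes per code; others are stated. Scripts were tested on simulated data. The total UMI counts of the libraries were 64849542 (E18.5), 127489333 (P0) and 59206442 (adult). Not every gene past 2-fold is named, and 1 item is not reported here.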

Additional observations from a re-analysis of the deposited data

Results flagged for a closer look

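Data outside the comparisons held a pair of signals. Of the 619 adult MyP4 cells under 1000 UMIs, 346 (55.9%) had a barcode that also occurred in another library, and 278 of them shared it with an E18.5 HP cell, which had more UMIs in 275 cases. In the E16.5 HP libraries, which hold no myeloid progenitor code, stefin A counts stood at 143 per 100 S100a8 counts, and 45371 of them were in the 74 cells of code Neu1, beside 31777 S100a8 counts. No difference between stages was tested, and the cause of either signal was not tested.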

How the results depend on the processing

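No paired analysis was possible because each stage had 1 library. Depth limits genes under about 100 CPM in MyP4, whose summed UMIs were 237815. The cause of the movements below was not tested, and the alternatives on shared barcodes, the 4 adult transcripts and late granule shares were chosen after seeing the data. Of the results that answer a comparison, 95 alternatives stayed near the reported value and 65 moved. Shares of cells: with all deposited cells MyP1 was 7.51%, E18.5 MyP2 6.50%, MyP4 11.7% and MyP5 8.39%. Without shared barcodes MyP1 was 8.79% and E18.5 MyP2 6.73%. At 2000 and 5000 UMIs MyP4 was 0.758% and 0.287%, and MyP5 11.2% and 14.2%. The share of Mpo, Elane and Prtn3 in E18.5 MyP2, P0 MyP3 and MyP5 was 1.34%, 2.62% and 2.96% as a mean over cells, 1.99%, 3.83% and 4.37% without mitochondrial and ribosomal protein genes, 1.30%, 2.59% and 2.93% without the cells with the most UMIs, and 0.752%, 1.55% and 2.84% over all member codes. Without the 4 adult transcripts it was 3.02% in MyP5. Genes past 2-fold (higher in the later stage, then in the earlier) were, for P0 against E18.5, 71 and 13 with median-of-ratios scaling, 116 and 148 from 20 CPM, 519 and 907 from 10 counts, 10 and 11 between 0.1 and 1% late granule UMIs, 5 and 3 at 1% or more (here with the genes that set the split), and 8 and 12 with P0 MyP2. For the adult against P0 they were 170 and 103, 1152 and 448 at the same lower minimums and 67 and 90 with P0 MyP2, and 47 were higher in the adult without mitochondrial and ribosomal genes. For the adult against E18.5 they were 82 and 24 with median-of-ratios scaling, 205 and 184, 1067 and 766 at the lower minimums, 94 and 97 over all member codes, 29 and 36 between 0.1 and 1%, and 72 were higher in the adult without mitochondrial and ribosomal genes. List genes higher at E18.5 were 6 in place of 10 with median-of-ratios scaling. CD48 in E18.5 MyP2, P0 MyP3 and MyP5 was positive in 86.7%, 9.04% and 63.9% above 0.75, and 19.6%, 0.565% and 5.78% above 1.5; scaled across cells of 1000 UMIs it was 16.0% in E18.5 MyP2 and 18.3% in MyP5. Sca-1 above 0.75 was 16.4% in E18.5 MyP2 and 18.3% in MyP5, and 4.58% above 1.5 in MyP5. With P0 MyP2 in place of MyP3, log2 ratios changed sign for P0 against E18.5 in Elane (-0.88), S100a8 (-4.04), S100a9 (-5.80), Camp (-8.10), Ngp (-8.05), Fcnb (-4.86), Stfa1 (-4.02), Cd34 (0.54), Hmga2 (0.053) and Ly6c2 (-0.094), and for the adult against P0 in S100a8 (4.51), S100a9 (6.47), Camp (8.64), Ngp (7.98) and Fcnb (5.09). Over all member codes the adult against P0 ratio changed sign for S100a8 (0.44), S100a9 (0.40) and Camp (0.13). At like late granule share, it changed sign for P0 against E18.5 in S100a9 (-0.054), Stfa1 (-0.30 and -0.045) and Cd34 (0.31), for the adult against P0 in Camp (1.86) and Ngp (2.33), which like S100a9 are among the genes that set the share and are compared between 0.1 and 1%, where adult cells could not be told from background, and for the adult against E18.5 in Cd34 (0.17).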
